A study of Homo sapiens with 22 samples.

Results

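Cluster 3 is 1 of the 8 drug-susceptible clusters that the authors' labels set in untreated WM989 cells, and its 1215 cells were taken by that label alone. WM989 is a BRAF-mutant human melanoma cell line. The untreated experiment held 12531 cells in 8 wells of a 10x chip, with wells 1 to 4 in replicate r1 and wells 5 to 8 in replicate r2. Of these, 9688 cells were labelled drug-susceptible and 2843 primed, which is the study's name for the state with a higher chance of surviving BRAF and MEK inhibitors. The cells of this experiment came from cultures transduced with a lentiviral lineage barcode library, and none had been treated. At least 1 barcode molecule was found in 9127 of the 9688 drug-susceptible cells. This measure is looser than the study's filtered lineages, which cover fewer cells. They had grown from sorted cells, either a mixed population or cells high in EGFR and NGFR, and each culture was spread over more than 1 chip well, so that wells are not independent cultures. The cell labels do not give the sort of a well, so no value is given by sort. The whole series holds 54001 cells. Beside the untreated WM989 cells they are 1449 untreated cells of a second human melanoma line, WM983B, and 40021 WM989 cells in 8 libraries that were left as Control or treated with TGFB1, with an inhibitor of the TGF-beta receptors (TGFBRi) or with an inhibitor of PI3K (PI3Ki). Each treatment had 2 libraries, which the sample labels call Mix and Primed and the cell labels r1 and r2. Which of these names belong together was not settled, and the study's methods describe parallel samples, so r1 and r2 are treated as replicates here. The labels of these treatments give no dose or time. ATAC-seq peak lists of sorted WM989 cells, which had grown with no treatment label other than the sort, complete the data.

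Drug-susceptible melanoma cells keep the transcription factors SOX10 and MITF of the melanocyte lineage and the pigment genes these drive, while primed cells have low levels of both and express EGFR, AXL and NT5E. Every dividing cell also needs machines that make, fold and clear proteins. The ribosome makes them, the CCT chaperonin folds actin and tubulin, the ER chaperone HSPA5 (BiP) holds unfolded secreted proteins, and the proteasome degrades tagged ones. Genes of the CCT chaperonin, the ER and other chaperones and the proteasome are described here because most were lower in cluster 3. Ribosomal protein genes are described beside them.

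Cluster 3 made up 12.5% of the drug-susceptible cells (exact Clopper-Pearson 95% interval 11.9 to 13.2, counting error only). The share was 13.9%, 15.3%, 13.2% and 16.3% in wells 1 to 4 and 3.61%, 6.72%, 9.69% and 6.81% in wells 5 to 8. Every well of r1 lay above every well of r2, and wells 5 and 6 held only 3 and 9 cells of the cluster. These 2 wells held 83 and 134 drug-susceptible cells. Primed cells were 56.9%, 62.4%, 7.87%, 6.85%, 79.7%, 76.9%, 9.17% and 9.42% of all cells in wells 1 to 8. Well 4 alone gave 583 of the 1215 cells. No test was made, since the wells are not independent cultures. The cluster held cells of every phase, with 212 in G1, 603 in S and 400 in G2M by the authors' phase calls. It took 8.57% (7.5 to 9.75) of the drug-susceptible cells in G1, 14.0% (13.0 to 15.1) in S and 13.7% (12.5 to 15) in G2M. Among drug-susceptible cells with at least 1 barcode molecule the share of cluster 3 was 12.5% as well.

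**Figure D1:**
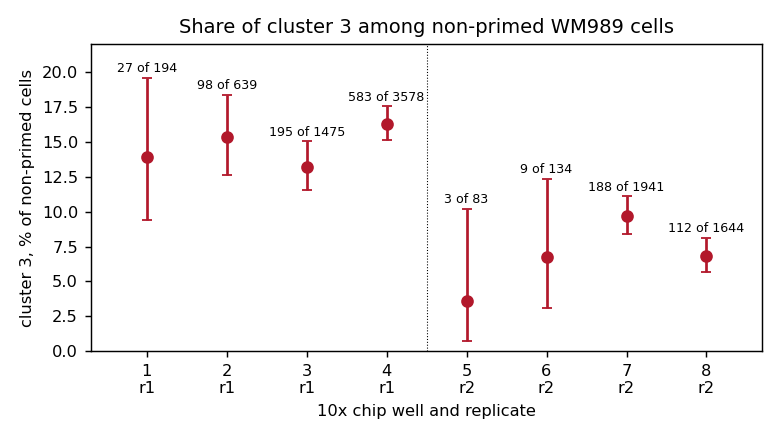
Share of cluster 3 among drug-susceptible WM989 cells (y axis, percent) in each chip well (x axis, with its replicate). Points are shares, bars exact Clopper-Pearson 95% intervals and the text above each gives the cells counted. The r1 wells lie between 13.2% and 16.3%, the r2 wells between 3.61% and 9.69%.

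Over all wells cluster 3 cells were deeper at the median than the other drug-susceptible cells. A cluster 3 cell held a median of 61090 UMIs (unique molecular identifiers, 1 per captured mRNA molecule), against 51905 in the other drug-susceptible cells and 58253 in the primed cells. By phase the medians were 61635 against 45270 in G1, 60081 against 53357 in S and 61666.5 against 55152 in G2M. Under 30000 UMIs were 216 of the 1215 cluster 3 cells, against 661 of 8473 other drug-susceptible cells, so shallow cells were the larger share of cluster 3. Within wells the order of medians changed, as the cluster was the deeper group in wells 2, 4, 7 and 8 and the shallower in wells 1, 3, 5 and 6. When each cell was thinned to 10000 UMIs, cluster 3 cells had a median of 2807 genes detected, against 3047 in the other drug-susceptible and 3067 in the primed cells. This gap was seen in wells 1, 2, 3, 4, 7 and 8, but not in wells 5 and 6. Mitochondrial transcripts took 18.5% of a cluster 3 cell's UMIs at the median, the highest of the 11 clusters, whose other medians lay between 7.49% and 15.8%. The median was above that of the other drug-susceptible cells in 8 of 8 wells. The authors had removed cells with few genes, likely doublets and cells with many mitochondrial reads before deposit, and no doublet caller was run. Of 12512 cell barcode sequences 19 occurred in more than 1 well, and 2 cluster 3 cells carried such a sequence.

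The 6 genes given as markers were the base of the name LINC00520 cells, and the data give them only in part. LINC00520, a long noncoding RNA gene of 4 exons on chromosome 14 (chr14:55781132-55796731, minus strand, GRCh38), was at 71.6 CPM (UMIs of the gene scaled to the same total in each group; exact Poisson 95% interval 69.7 to 73.6) in cluster 3. It was at 40.3 CPM (39.8 to 40.9) in the other drug-susceptible cells and at 14.1 CPM in primed cells. Cluster 10 stood above cluster 3 with 129.9 CPM, and this order held in r1 (106.8 against 68.9) and in r2 (211.0 against 79.8). In cells thinned to 10000 UMIs at least 1 LINC00520 molecule was found in 35.8% of cluster 3 (33.1 to 38.6), 39.9% of cluster 10 (35.4 to 44.5), 22.3% of all other drug-susceptible cells and 7.18% of primed cells. Primed clusters were not alike, with LINC00520 at 36.5 CPM in cluster 8, 10.6 CPM in cluster 2 and 7.75 CPM in cluster 9. Primed cells as a whole are therefore no measure of free RNA, and its part was not tested. The median depth of primed cells was 58253 UMIs before thinning. Well by well, cluster 3 was at 51.6, 80.9, 61.4, 70.4, 109, 42.5, 63.4 and 107 CPM in wells 1 to 8. The other drug-susceptible cells were at 56.3, 49.7, 35.1, 40.5, 20.7, 23.0, 45 and 38.7 CPM in the same order, so that LINC00520 was higher in cluster 3 in every well but well 1. Cluster 3 is therefore named by its number here.

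The other 5 markers were also shared with other clusters. LINC01918, a noncoding RNA, was at 94.2 CPM in cluster 3 and 59.9 CPM in the other drug-susceptible cells, with 104 CPM in cluster 10. In r2 cluster 10 was at 56.1 CPM, under the 79.1 CPM of cluster 3. LINC00698, another noncoding RNA, had 25.4 against 18.1 CPM, and C11orf96, a small gene of 1 exon, had 58.1 against 42.1 CPM. HRK, which encodes a BH3-only activator of apoptosis, had 21.3 against 15.5 CPM. For these 3 genes too cluster 10 was higher, at 42.7, 67.4 and 32.6 CPM. SCML4, a gene of the Polycomb-related SCML family, was the only one of the 6 with its highest level in cluster 3 (38.1 CPM), just above cluster 7 (34.1 CPM), and in r1 cluster 7 was the higher one (41.6 against 41.1 CPM). All 6 were at least 5 times as high in cluster 3 as in primed cells. In thinned cells 11.9% of cluster 3 had none of the 6 genes detected, against 25.1% of other drug-susceptible and 84.5% of primed cells.

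**Figure D2:**
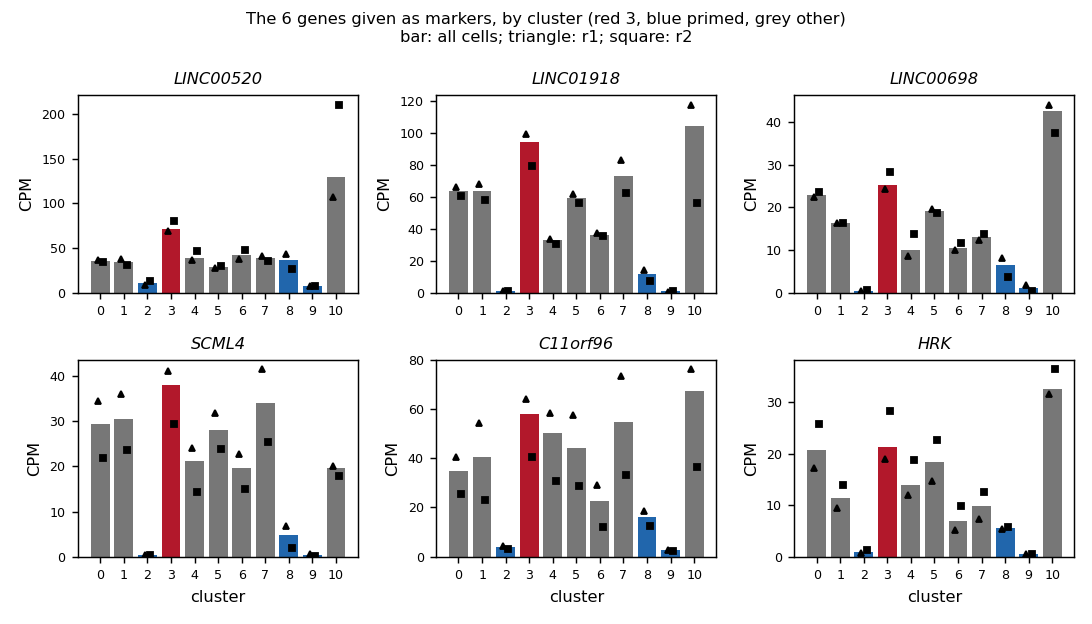
CPM of the 6 genes given as markers (y axes, linear from 0) in each of the 11 clusters (x axes). Bars are all cells of a cluster (red cluster 3, blue primed, grey other drug-susceptible), triangles r1 and squares r2. Cluster 10 is above cluster 3 for every gene but SCML4 when all cells are summed.

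Genes were lower in cluster 3 far more often than higher. Of 5683 genes with at least 20 CPM in cluster 3 or in the other drug-susceptible cells, 236 were at least 2-fold lower in the cluster (4.15% of genes tested) and 0 were at least 2-fold higher (0%). The clusters were made from these same cells, so this contrast is a description and has no test. At 1.5-fold the counts were 1001 lower and 11 higher, and the median log2 ratio of all genes was -0.16. The 236 genes, called the lowered genes from here on, were all below the other cells in both replicates. They were 2-fold lower in 229 cases in r1 and in 91 cases in r2. Lower in all 8 wells were 225 of the 236, against 27% of all genes. Set against 1 cluster at a time, 91 were 2-fold lower than in cluster 4 and 107 than in cluster 10. Against the other drug-susceptible clusters these counts lay between 153 and 225. Just inside the 2-fold limit were EIF6, PRIM1 and AC004148.2 (ratios 0.498, 0.498 and 0.499) and just outside were PPP1R7, ATP5F1C and HPF1 (each 0.501). When ratios were divided by their median, 124 genes were 2-fold lower and 1 higher. Among cells with 12 to 20% mitochondrial UMIs 114 were 2-fold lower and 236 of the 236 stayed below 1. This band narrowed the gap in mitochondrial share without closing it, as 366 cluster 3 cells lay above 16% and 273 below, against 1703 and 3173 of the other cells.

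The 10 genes with the smallest ratios belong to several compartments of the cell. CPVL, a serine carboxypeptidase, was at 5.02 CPM against 22.1 CPM, a ratio of 0.23. EIF4A3, the RNA helicase at the core of the exon junction complex (chr17:80134369-80147151, minus strand), was at 32.0 CPM (30.7 to 33.3) against 129 CPM (128 to 130). In wells 1 to 8 EIF4A3 was at 35.9, 27.9, 23.3, 22.6, 42.1, 27.8, 58.1 and 55.8 CPM in cluster 3. In the other drug-susceptible cells it was at 120, 101.4, 112, 99.7, 205, 178, 160 and 161 CPM, so the lowest well of these cells lay above the highest well of cluster 3. An EIF4A3 molecule was found in 26.5% of thinned cluster 3 cells and in 67.5% of the others. Mitochondrial metabolism gave FH, the fumarase of the citrate cycle (27.9 against 95.1 CPM), and MRPL39, a protein of the mitochondrial ribosome (9.79 against 34.2). PSMC4, an ATPase of the proteasome, was at 32.4 against 105 CPM, and ENO1, the enolase of glycolysis, at 419 against 1286 CPM. COPB1 of the COPI vesicle coat had 16.3 against 52.0 CPM, and PLRG1 of the spliceosome had 8.68 against 25.6 CPM. HSPA5 was at 53.3, 47.7, 42.7, 42.8, 130, 136, 102 and 98.2 CPM in wells 1 to 8 of cluster 3 and at 169, 149, 139, 131, 306, 272, 262 and 254 CPM in the other cells. Replicates thus differed in HSPA5 in both groups, and cluster 3 was lower in 8 of 8 wells.

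The 20 leading genes, those with the largest ratios, were higher by little. Their ratios lay between 1.85 for BAALC and 1.46 for TP53TG1, and 11 of them were higher in all 8 wells (12.8% of all genes were). BAALC, a membrane-associated protein known from acute leukemia, was at 60.1 against 32.4 CPM, but was higher in only 5 of 8 wells. Cluster 4 stood above cluster 3 with 64.5 CPM, in r1 (72.7 against 70.0) and in r2 (44.3 against 30.6). In primed clusters 8, 2 and 9 BAALC was at 55.5, 43.1 and 37.6 CPM. After BAALC and LINC00520 came AP002884.1, TOMM5 of the mitochondrial import pore (37.8 against 23.4 CPM), LRRC75A (77.0 against 48.1) and LINC01711. AP002387.2, CAMK2N1, an inhibitor of CaM kinase II (25.4 against 16.1), LINC01918 and TMEM238 followed. MT-CO2, the mitochondrial subunit 2 of cytochrome oxidase, was at 35821 against 23742 CPM and higher in 8 of 8 wells. SYNGR2, MMP24OS, AC008267.5, GAPLINC and AC008771.1 came next, then BCL2L1, the antiapoptotic BCL-XL (43.1 against 29.2), METRN, the ribosomal protein gene RPS12 (7886 against 5391) and TP53TG1. CAMK2N1 was far higher in primed cells (548 CPM) than in either drug-susceptible group. Long noncoding genes were mostly on this side, as 68 of 73 were higher in cluster 3 (31.9% of all genes tested were) with a median log2 ratio of 0.29, against -0.17 over 5558 protein-coding genes.

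Gene lists were read at a ratio of 1.5 among 9692 genes with at least 5 CPM, of which 14.1% were lower, 0.557% higher and the median log2 ratio was -0.12. Protein quality control was lowered most broadly. Of 31 proteasome subunits 29 were lower with a median log2 ratio of -1.06, from 0.31 for PSMC4 to 0.84. The CCT chaperonin had 7 of 8 subunits lower (median -1.12), with CCT5 at 209 against 528 CPM. Of 18 chaperones of the HSP70, HSP90 and ER families 16 were lower (median -1.05). Among them were HSP90AA1, the inducible cytosolic HSP90 (1063 against 2566 CPM), HSPA8, the constitutive HSC70 (369 against 868), and HSP90B1, the HSP90 of the ER (156 against 395). Tubulins, clients of CCT, were lower in 6 of 8 measured members (median -1.13), with TUBA1B at 492 against 1018 CPM.

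Metabolism and division were lowered in part. Of 21 genes of pyruvate dehydrogenase and the citrate cycle 12 were lower (median -0.77), while CS, citrate synthase, was at 66.2 against 54.8 CPM. Glycolysis had 8 of 17 enzymes lower (median -0.58), with LDHA at 256 against 623 CPM. Nuclear complex I had 8 of 37 subunits lower (median -0.23), a share nearer to that of all genes. Mitosis genes were lower in 10 of 16 (median -0.82) and genes of G1/S and DNA replication in 8 of 18 (median -0.50), although the cluster held more S and G2M than G1 cells. CCNB1, cyclin B1, was at 32.0 against 90.6 CPM and PCNA, the clamp of DNA replication, at 71.0 against 170 CPM. S-phase histones had 3 of 8 lower, and among 14 measured factors of the exon junction complex and nonsense-mediated decay 4 were lower (median -0.24). These 4 were EIF4A3 and its partners in the core of the complex, with MAGOH at 50.1 against 98.6 CPM, MAGOHB at 35.4 against 62.3 CPM and RBM8A at 195 against 303 CPM. CASC3, which also joins the complex, was at 20.5 against 19.96 CPM.

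Cytosolic ribosomal protein genes and the mitochondrial genome had medians above 0, but few members passed the limit. Of 79 cytosolic ribosomal protein genes 0 were 1.5-fold higher and 0 lower, with a median log2 ratio of 0.19. The 13 mitochondrially encoded genes had a median of 0.34, with 1 higher, MT-CO2, and 1 lower, MT-ND6, the one protein gene on the light strand, at 385 against 623 CPM. Host genes of small nucleolar RNAs had a median of 0.13 and 0 of 8 past the limit. No member passed 1.5-fold among 16 genes of ERK output, 11 immediate early genes and 13 genes of the BCL2 family. The last of these lists includes BCL2L1 and HRK, which led at 1.48 and 1.38. The lists of ATF4 stress, with 3 of 13 lower, p53 targets, with 1 of 10, interferon response, with 2 of 8, hypoxia, with 2 of 10, TGF-beta targets, with 2 of 9, sterol synthesis, with 2 of 13, and Polycomb genes, with 2 of 17, had medians between -0.30 and 0.04.

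**Figure D3:**
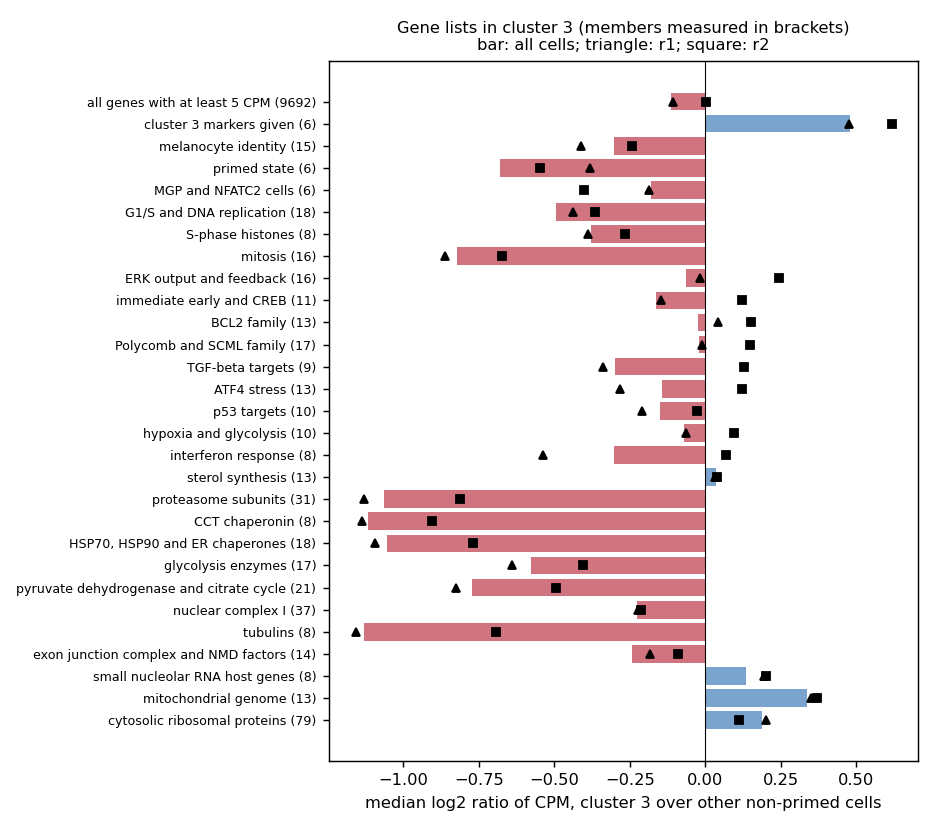
Median log2 ratio of CPM in cluster 3 over the other drug-susceptible cells (x axis) for gene lists (y axis, members measured in brackets). Bars are all cells, triangles r1 and squares r2. Proteasome, CCT, chaperone and tubulin lists lie below -1 over all cells and are lower in both replicates, while ribosomal proteins and the mitochondrial genome lie above 0.

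The cells remained melanocytic. SOX10 was at 135 against 129 CPM and 7.09 in primed cells, and MITF at 276 against 319 and 45.7. PMEL, which forms the fibrils of the melanosome, was the furthest below at 911 against 2350 CPM, followed by SLC45A2 (34.6 against 76.4), SLC24A5 (20.6 against 39.2) and EDNRB (21.2 against 39.4). PMEL was at 807, 702, 918, 942, 590, 660, 967 and 918 CPM in wells 1 to 8 of cluster 3 and between 1869 and 2745 CPM in the other drug-susceptible cells. The 2 ranges did not overlap. Of 15 measured melanocyte genes 5 were lower and 0 higher, and the summed level of the list was 3742 against 5962 CPM, with 394 CPM in primed cells. The primed state list of 20 genes summed to 289 CPM in cluster 3, 424 CPM in the other drug-susceptible cells and 7334 CPM in primed cells. Markers of other cell types were low, with one exception among keratinocyte genes. Fibroblast markers summed to 18.6 CPM (39.7 in the others), endothelial markers to 0.592 and leukocyte markers to 1.28 CPM. Keratinocyte markers summed to 159 CPM against 125, with 5 of the 6 under 1 CPM.

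The lowered genes shared features that the clustering labels did not name. Their transcripts had a median of 11 exons and 2087 bases, against 9 exons and 2958 bases for all 5632 genes with GENCODE annotation. The median GC content of the lowered genes was 44.3%, against 47.2%. Across genes the log2 ratio had Spearman's rho of -0.27 with the exon number, 0.25 with GC content and -0.02 with length. Genes are not independent replicates, and these genes share libraries and depth. The share of genes that were 2-fold lower was 1.12% at 3 or 4 exons, 8.83% at 11 to 15 exons and 3.75% above 15 exons, so it did not rise throughout. Medians by chromosome ran from -0.34 on chromosome 4 to -0.06 on chromosome 19, with a median GC content of 41.6% and 60.3%. Chromosome 18, at 41.6% like chromosome 4, had a median of -0.07, so GC content did not order the chromosomes throughout.

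Promoter sequence was read for 206 of the 236 lowered genes and 4702 of the genes tested, from RefSeq (GRCh38.p14), between 250 bases before and 50 bases after the transcription start, on both strands. The ER stress response element, which the unfolded protein response uses and which was searched as CCAAT and CCACG with 9 bases of any kind between them, was in 2 of 206 (0.971%) and in 9 of 4702 (0.191%). Those 2 genes were HSPA5 and HSP90B1, and their elements are shown since they are the classical targets of that response and both were lowered. Capitals mark the element as read on the strand of the gene, or its reverse complement.
HSPA5, chr9:125241385-125241414, minus strand: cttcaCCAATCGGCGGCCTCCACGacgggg
HSP90B1, chr12:103930211-103930240, plus strand: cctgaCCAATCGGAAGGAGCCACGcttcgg
HSP90B1, chr12:103930316-103930345, plus strand, reverse complement: gggtgCGTGGTGCGGCGCGATTGGtgggtt
CCAAT alone, which the element contains, was in 48.1% against 38.3%, the ETS motif CCGGAAG in 27.7% against 23.4%, the YY1 motif AAGATGGC in 6.80% against 6.91% and the E-box CACGTG in 11.7% against 11.6%. The palindrome bound by NRF1 was in 2 of 206 (0.971%) against 2.999%. A match is a description of letters and not a bound site.

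The lowered genes were then summed in each cell. They were chosen for low levels in these same cells, so a low sum in cluster 3 follows from the choice, and the values only describe its spread over cells and wells. These genes gave a median of 1.83% of a cluster 3 cell's UMIs (5th to 95th percentile 1.11 to 3.11), against 4.77% (2.79 to 6.22) in the other drug-susceptible cells and 4.06% in primed cells. Well medians of cluster 3 were 1.56%, 1.48%, 1.55%, 1.73%, 2.10%, 2.0%, 2.33% and 2.42% in wells 1 to 8, and those of the other drug-susceptible cells lay between 4.02% and 5.29%. Cluster 3 was higher in the wells of r2 than in those of r1. Within phases the medians were 1.66% against 4.57% in G1, 1.84% against 4.72% in S and 1.89% against 5.03% in G2M. Among cells with 20 to 30% mitochondrial UMIs the medians were 1.52% against 4.43%, and among those with 8 to 12% they were 2.20% against 5.07%. Among cells under 30000 UMIs they were 1.67% against 5.29%, and above 80000 UMIs 1.89% against 4.42%. At a limit of at least 2-fold below the median of all drug-susceptible cells, 895 of 1215 cluster 3 cells (73.7%) and 168 of 8473 other drug-susceptible cells were under it. Since the limit is a point on a continuous scale, 217 cluster 3 cells lay within 10% of it.

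**Figure D4:**
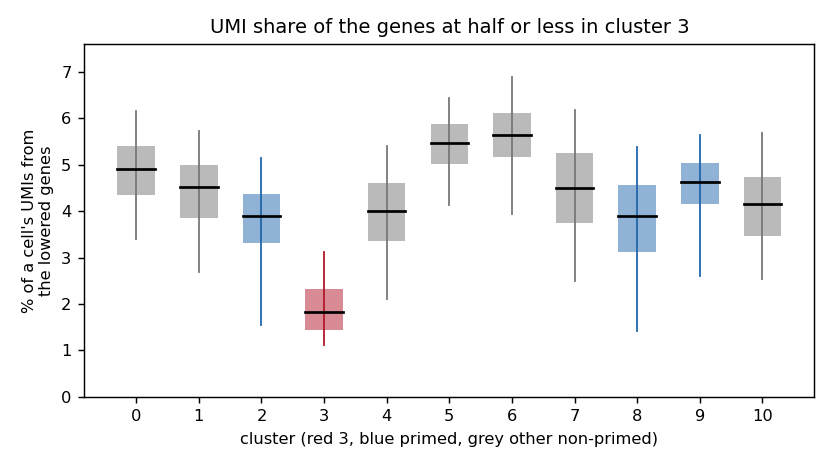
Percent of a cell's UMIs from the 236 lowered genes (y axis, linear from 0) in each cluster (x axis). Boxes span the 25th to 75th percentile with the median as a line, and whiskers the 5th to 95th percentile. The median of cluster 3 is 1.83%, and the medians of the other clusters lie between 3.89% and 5.64%.

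Primed cells held a tail of the same kind, as 325 of 2843 were under that limit, 192 of them in cluster 2 and 107 in cluster 8. These 325 cells kept the primed gene NT5E (178 CPM, against 198 CPM in the other primed cells). They had more SOX10 (22.6 against 4.87 CPM), MITF (69.3 against 42.3) and LINC00520 (45.2 against 9.60). Their mitochondrial share was 11.03% at the median against 7.70%, and their depth 71946 UMIs against 57159. Doublets were not called, and the part of depth and of doublets was not tested. The low share of these genes was thus not confined to cluster 3 by the cell labels.

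Clustering the cells anew, without integration over replicates, put 834 of the 1215 cells (68.6%) in 1 of 8 new clusters. That cluster held 1195 cells, of which 69.8% were from cluster 3, 356 cells from other drug-susceptible clusters and 5 from primed clusters. Against the remaining drug-susceptible cells it had 273 genes at least 2-fold lower, of which 164 were among the 236, and 3 at least 2-fold higher.

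WM983B had no cluster of this kind. The share of UMIs from the lowered genes lay between 4.76% and 5.30% at the median in its 4 clusters, and 4 of 1449 cells were at least 2-fold below the median of all its cells. LINC00520 was at 10.4 and 51.8 CPM in its primed clusters and at 44.1 and 35.4 CPM in its other clusters. LINC01918, LINC00698, SCML4 and HRK were under 5 CPM in each of the 4 clusters. WM983B is 1 library, so no spread can be given.

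In the treatment experiment, which has its own clusters, cluster 11 resembled cluster 3. Its 355 cells had 1.78% of UMIs from the lowered genes at the median, against 3.78% to 5.37% in the other 12 clusters. Its log2 ratios to the other drug-susceptible cells had Pearson's r of 0.70 with those of cluster 3 across 5620 genes, which are not independent replicates, while the other clusters had r between -0.21 and 0.24. The lowered genes had a median log2 ratio of -1.18 in it and all genes one of -0.40. LINC00520 was at 77.5 CPM, the highest of the 13 clusters, EIF4A3 at 37.5 CPM and ENO1 at 383 CPM. Unlike cluster 3, it had the lowest mitochondrial share of the 13 clusters (7.27% at the median), and 271 of its 355 cells (76.3%) came from PI3Ki r2.

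In the treatment libraries, cells were picked by some of the lowered genes and the others were read in them. The 234 lowered genes found there were split in alphabetical turns into 2 sets of 117. Both sets hold subunits of the same complexes, such as PSMA2 in the first and PSMA3 in the second. The second set is thus not independent of the first, and low levels in it may follow from the choice. In each library, drug-susceptible cells with a share of UMIs from the first set at least 2-fold below the library's median were compared with cells of the same library and phase matched on UMIs. This comparison was chosen after the data had been seen. There were 7 and 8 such cells in the 2 Control libraries, 32 and 25 in TGFB1, 10 and 48 in TGFBRi, and 39 and 245 in PI3Ki, each for r1 and r2. Of these 414 cells 236 were in cluster 11. With library as block, 111 of the 117 genes of the second set were lower and 0 higher, with a median log2 change of -0.98, by edgeR's quasi-likelihood test with Benjamini-Hochberg adjustment over 5501 genes. Of all these genes 22% were called lower and 21% higher. They were the genes with at least 20 CPM in the untreated comparison that lie outside the first set. CAMK2N1, for instance, entered through its level in cluster 3. With filterByExpr on all genes instead, 90 of 92 genes of the second set were lower, as were 1110 of 4489 genes. Without the cells of cluster 11, 83 of the 117 were called lower (10.1% of all genes), and without both PI3Ki libraries 103 (12%). The fit without cluster 11 also left out 3 libraries with 5 or fewer remaining cells, both Control libraries and TGFBRi r1. It thus held no Control cells.

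EIF4A3 was at 15.7 to 70.5 CPM (median 25.7) in the low-share cells of the 8 libraries and at 83.2 to 139 CPM (median 114) in the matched cells. It was lower in 8 of 8 libraries without overlap (log2 change -1.69, SE 0.14, adjusted p = 4.7e-15). CPVL changed by -1.85 (SE 0.25, adjusted p = 9.5e-09) and ENO1 by -1.46 (SE 0.10, adjusted p = 1.6e-18). PSMC4 was at 14.7 to 42.0 CPM against 64.3 to 128 CPM and did not overlap between the sides either. Of 20 tested proteasome subunits 20 were lower (median -0.89), as were 12 of 14 chaperones (median -0.84) and 11 of 15 genes of pyruvate dehydrogenase and the citrate cycle. The cells were picked by other members of these lists, such as PSMA2, HSPA5 and PDHB, so these counts are not independent of the choice. List counts include the cells of cluster 11 and were not computed without them. Ribosomal protein genes were higher in 76 of 79 and lower in 1 (median 0.69). That median is on the TMM scale of this fit and is not set against the ratio of plain CPM in cluster 3. Only 2 of 6 tubulins passed, and PSMD1, a proteasome subunit of the base, was at 74.4 to 105 CPM against 125 to 218 CPM.

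The leading genes of cluster 3 were higher in the same cells, 19 of 19 tested. Of all genes 21% were. With filterByExpr on all genes, 14 of 14 leading genes were higher, as were 1055 of 4489 genes. In the main set of genes, 16 of 19 were higher without both PI3Ki libraries (11.6% of all genes). Without the cells of cluster 11, 12 of 19 were higher (9.67%), and 0 were lower in either case. CAMK2N1 rose by 1.39 (SE 0.17, adjusted p = 7.4e-10) and GAPLINC, a noncoding RNA, by 1.42 (SE 0.20, adjusted p = 2.9e-08). RPS12 rose by 1.02 (SE 0.09, adjusted p = 1.9e-14) and MT-CO2 by 0.50 (SE 0.09, adjusted p = 6.8e-06). Of the 6 markers 4 rose, led by LINC00520 with 1.65 (SE 0.19, adjusted p = 6.9e-11). It was at 30.6 to 165 CPM (median 83.1) in low-share and 2.62 to 64.4 CPM (median 11.4) in matched cells, and was higher in 8 of 8 libraries although the ranges overlapped. LINC01918, C11orf96 and HRK rose by 0.95, 0.78 and 0.54, of which HRK was not called without PI3Ki r2 (0.28, adjusted p = 0.40) and neither C11orf96 nor HRK without the block (adjusted p = 0.13 and 0.14), while SCML4 (0.23, adjusted p = 0.22) and LINC00698 (-0.13, adjusted p = 0.63) did not pass. Without the cells of cluster 11 LINC00520 still rose, by 0.76, whereas LINC01918 had a change of -0.12. SOX10 was at 96.2 to 179 CPM (median 134.5) against 96.4 to 165 CPM (median 139.3) and did not pass (0.25, adjusted p = 0.058). By plain CPM it was higher in the low-share cells of 3 of 8 libraries. Its change and the other log2 changes and calls of this paragraph are on the TMM scale of the fit, not that of plain CPM. Mitochondrial shares went against cluster 3 in part, as the low-share cells of PI3Ki r2 had a median of 7.24% and their matched cells 9.56%, while in Control r1 they had 13.2% and 9.66%.

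**Figure D5:**
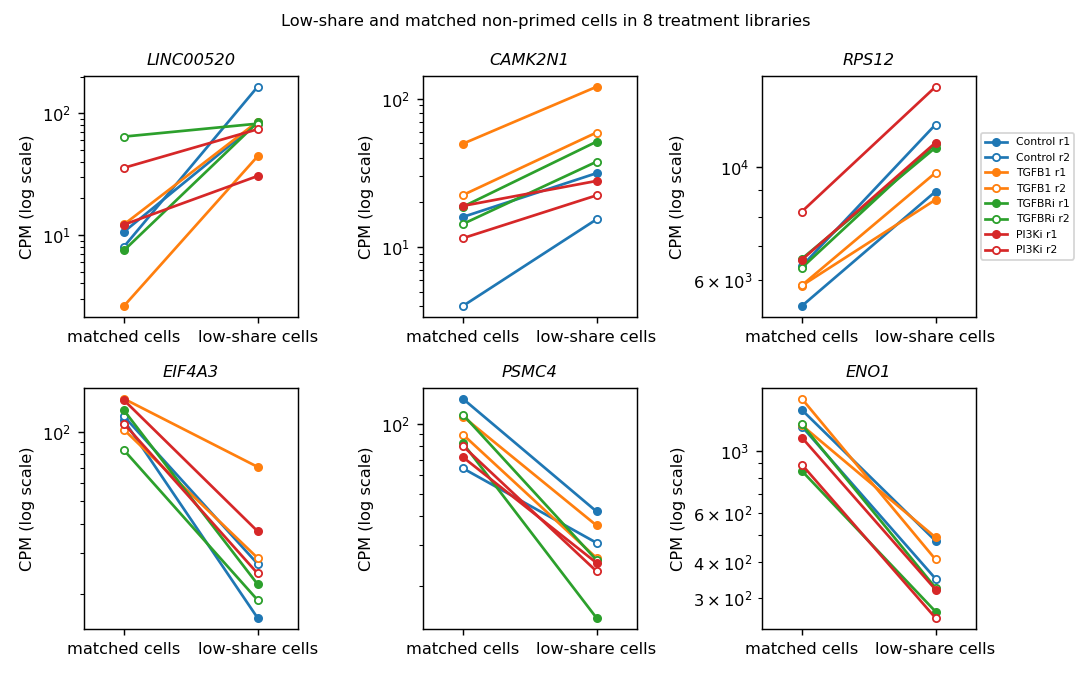
CPM (y axes, log scale) of 6 genes in low-share cells and in cells matched on library, phase and UMIs (x axes) in the 8 treatment libraries, joined by lines. Filled points are r1 and open points r2. LINC00520, CAMK2N1 and RPS12 are higher and EIF4A3, PSMC4 and ENO1 lower in the low-share cells of all 8 libraries.

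Cells were also chosen by LINC00520 alone. Drug-susceptible cells of the treatment libraries with a LINC00520 molecule, from 426 to 1376 per library, were compared with cells of the same library without one, matched on UMIs. A single molecule made a cell positive, so free RNA could place cells on that side, and its part was not tested. By edgeR with library as block, 1262 of 12948 genes were higher (9.75%) and 1129 lower (8.72%). Of the 234 lowered genes 76 were lower and 18 higher, with a median log2 change of -0.05, and EIF4A3 fell by 0.12 (SE 0.02, adjusted p = 0.00019). Of 18 leading genes 10 were higher and 0 lower. Without the libraries of r2 244 of all genes were higher and 174 lower, 20 of the lowered genes were lower and 5 higher, and 3 leading genes were higher. In Control libraries alone 24 of the lowered genes were lower and 5 higher, and 2 leading genes were higher. Of 13617 genes 212 were then higher and 156 lower. LINC00698 (0.38, SE 0.04), LINC01918 (0.23, SE 0.04) and HRK (0.13, SE 0.04) were called higher, whereas SCML4 (-0.00) and C11orf96 (0.05) did not pass. GAPLINC rose by 0.40 and was higher in 8 of 8 libraries. These calls rest on the comparison within libraries, as without the block 6 genes were called in all and 0 of the lowered genes.

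The largest rises beside LINC00520 itself were in genes outside the lowered and the leading genes. SLC7A11, the cystine transporter and a member of the ATF4 stress list, was at 2.86 to 24.4 CPM (median 13.9) in positive and 1.70 to 14.8 CPM (median 6.83) in negative cells and rose by 0.97 (SE 0.07, adjusted p = 5.9e-18). PPY, pancreatic polypeptide, rose by 0.85, CCN3, a matricellular protein, by 0.67, COL6A5, a collagen VI chain, by 0.65 and TMEM158 by 0.59. The largest falls were in ITGA10, an integrin alpha chain (-0.37), ENPP1, an ectonucleotidase (-0.30), the histone genes HIST1H3D (-0.30) and HIST2H2AC (-0.29), and KIF15, a mitotic kinesin (-0.29). Of 16 mitosis genes 15 were lower and of 11 S-phase histones 9. Positive cells were more often in G1 than their matched cells in 7 of the 8 libraries, for instance 33.5% against 24.3% in TGFBRi r2. In G1 cells alone HIST1H3D had a change of 0.09, and the part of phase in the rest of these lists was not tested. Proteasome subunits were 3 higher and 4 lower of 31, and ribosomal proteins 7 higher and 4 lower of 79. Both lie near the shares of all genes, 9.75% higher and 8.72% lower. The changes in low-share cells, where 20 of 20 tested proteasome subunits were lower, and those in LINC00520-positive cells were not tested against each other.

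The markers given for cluster 3 and its lowered genes were then followed under treatment. Each treatment had 2 libraries, r1 and r2, and was compared with the same 2 Control libraries by edgeR with replicate as a term, over 18389 genes and all cells of a library. Sums over cells do not separate fewer cells with a transcript from less transcript per cell, and this was not tested by treatment. LINC00520 was at 14.0 and 25.3 CPM in Control, 11.3 and 17.6 in TGFB1, 13.8 and 34.9 in TGFBRi, and 9.85 and 28.9 in PI3Ki for r1 and r2. It was higher in r2 than in r1 under all 4 conditions, and the treatments overlapped.

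TGFB1 lowered 6 of the 6 markers (background 12.7% lower and 16.3% higher). HRK was at 11.1 and 12.4 CPM against 27.3 and 23.7 CPM in Control (log2 change -1.13, SE 0.08, adjusted p = 2.1e-10). C11orf96 was at 10.2 and 9.08 CPM against 21.3 and 18.8 CPM (-1.07, SE 0.07, adjusted p = 8.0e-11) and SCML4 at 19.1 and 25.8 CPM against 43.1 and 47.1 CPM (-1.03, SE 0.07, adjusted p = 2.9e-10). The groups did not overlap for these 3 genes, nor for LINC00698 and LINC01918, with 2 libraries on each side. How many of all genes did not overlap was not counted, so the lack of overlap is a description only. LINC00698 changed by -0.61 (adjusted p = 1.2e-06), LINC00520 by -0.43 (adjusted p = 0.023) and LINC01918 by -0.27 (adjusted p = 0.034). The last pair was not called by DESeq2 (adjusted p = 0.44 and 0.31) or without the replicate term (0.57 and 0.19). With 1 library left out at a time LINC00520 lay between -0.75 without TGFB1 r1 and -0.09 without TGFB1 r2, and LINC01918 between -0.42 without Control r2 and -0.10 without Control r1. Each of these fits leaves 1 library in a group, so the spread comes from the other groups and no call of these 2 markers is read from them. Primed cells were 29.1% and 31.3% of the TGFB1 libraries, against 2.26% and 4.47% of Control. In drug-susceptible cells alone 4 of 6 markers were lower, and LINC00520 (-0.16, adjusted p = 0.50) and LINC01918 (0.08, adjusted p = 0.65) did not pass. Of the 234 lowered genes 56 were lower and 25 higher under TGFB1, with a median of -0.09 against 0.01 for all genes. Fewer of these, and fewer of all genes, were called with any 1 library left out. In drug-susceptible cells alone 25 were lower and 22 higher, where 6.32% of all genes were lower and 8.56% higher.

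TGFBRi changed few genes (1.09% higher and 1.45% lower), 200 and 266 of them. These counts were 61 and 107 without Control r2 and 568 and 578 without TGFBRi r1. LINC01918 fell from 79.4 and 77.0 CPM to 38.6 and 50.7 CPM (-0.81, SE 0.09, adjusted p = 1.6e-05), C11orf96 rose by 0.48 (adjusted p = 0.00014), and of the lowered genes 4 were higher and 6 lower. BAALC rose from 12.4 and 11.1 CPM to 22.5 and 20.7 CPM (0.90, SE 0.08, adjusted p = 1.9e-07). Under PI3Ki 12 of the lowered genes were higher and 38 lower, against 5.83% higher and 6.83% lower of all genes. Fewer of these, and fewer of all genes, were called with any 1 library left out, which leaves 1 library in a group. The median log2 change of the lowered genes then lay between -0.08 and -0.02, against -0.05 in all libraries. C11orf96 rose from 21.3 and 18.8 CPM to 48.3 and 40.2 CPM (1.24, SE 0.07, adjusted p = 2.5e-11), HRK by 0.34 (adjusted p = 0.0039) and SCML4 by 0.23 (adjusted p = 0.040), while LINC01918 fell by 0.35 on the log2 scale (adjusted p = 0.014). DESeq2 called 2 of the 6 markers higher under PI3Ki, C11orf96 and HRK, and 0 lower. ENO1 was at 1194 and 1031 CPM against 1685 and 1565 CPM (-0.45, adjusted p = 0.00038), and 13 of 17 glycolysis enzymes were lower. Of 31 proteasome subunits 1 was lower and 0 higher, which is near the 6.83% and 5.83% of all genes. Of 79 ribosomal protein genes 59 were higher under PI3Ki (median 0.32). The 3 treatments share their Control libraries.

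Drug-susceptible cells at least 2-fold below their own library's median share of the lowered genes were 0.148% and 0.312% of those in the Control libraries, 0.755% and 0.804% in TGFB1, 0.196% and 0.816% in TGFBRi, and 1.15% and 4.48% in PI3Ki, for r1 and r2. Both PI3Ki libraries and both TGFB1 libraries lay above both Control libraries, whereas TGFBRi r1 lay between them. The shares rest on 6 and 11 cells in Control, 29 and 31 in TGFB1, 10 and 49 in TGFBRi, and 44 and 256 in PI3Ki. In TGFB1 more cells, 47 and 40, lay within 10% of the limit than under it, so its shares depend on where the limit is set. In the untreated experiment, with its own median as the base, they were 1063 of 9688 drug-susceptible cells (10.97%). The 2 experiments differ in depth, with library medians of 13013 to 21721 UMIs per cell in the treatment libraries, and in culture, and the part of either was not tested.

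ATAC-seq peaks called by the authors in 3 libraries labelled Mix and 3 labelled EGFR-NGFR-High were read within 1000 bases of transcription starts. The study's methods name no Mix sort for ATAC-seq and list cells negative for EGFR and NGFR in its place, so what the label Mix covers was not settled. Neither sort isolates cluster 3. A peak was present in all 6 libraries for 234 of 235 lowered genes and for 99.6% of all 5632 genes. Fold enrichment over local background was above that of every Mix library in every EGFR-NGFR-High library at 21 of the 235 (10.3% of all genes) and the reverse at 3 (2.01%). Peak enrichment at EIF4A3 was 72.6 ± 5.4 (SD, n = 3) in EGFR-NGFR-High and 71.4 ± 4.8 in Mix. The marker LINC00698 had 17.0, 10.4 and 11.4 in EGFR-NGFR-High and 21.5, 29.7 and 25.7 in Mix, and LINC01918 had 7.74, 6.14 and 8.44 against 12.1, 9.43 and 13.6. Neither pair of groups overlapped, with p = 0.1 in a two-sided exact permutation test, the smallest value that 3 against 3 libraries allow. LINC00520 did not differ by more than the spread between libraries, with 8.0 ± 0.05 and 7.97 ± 1.82 (exact permutation p = 1).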

How the data were processed

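The deposited scRNA-seq tables hold raw UMI counts for each gene in each cell, which the authors obtained with Cell Ranger (hg38) without scaling libraries to one depth. The authors had removed cells by gene number and by mitochondrial share, and the deposited metadata give that share as the percent of a cell's UMIs. Their cell labels gave well, replicate, phase, state and cluster. Clusters rest on data integrated over replicates in Seurat V3, as their column in the metadata is named for the integrated data. For ATAC-seq the authors deposited MACS2 2.1.1.20160309 peak lists, whose fold enrichment is a ratio over local background. The genome annotation behind the counts was not given in the sources used here.

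Counts were summed over cells and scaled to CPM, the unit of all levels. Untreated cells are 1 sample, so no test was made and Clopper-Pearson and Poisson intervals at 95% cover counting error only. Genes entered with at least 20 CPM in either group (5 CPM for lists), with a pseudocount of 0.1 CPM. Named genes are the 6 markers given, the 20 largest and 10 smallest ratios of the same direction in r1 and r2, list members, and the 5 largest rises and falls of LINC00520-positive cells with a mean of at least 10 CPM, of which 1 is not reported here. PMEL, SOX10, MITF, BAALC, GAPLINC and the list members shown were picked within these sets after their values were seen. Lists of 10 housekeeping groups were added after the ratios had been seen, and members and all lists were chosen with earlier results of these data known, so list counts are descriptions.

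Treatment libraries held 70239657 to 122420544 UMIs. Library sums went into edgeR 4.0.16 under R 4.3.3 (filterByExpr, TMM, two-sided quasi-likelihood test, Benjamini-Hochberg threshold 0.05), and SE is the log2 change over the square root of F. The fit of low-share cells used the genes tested in the untreated cells in place of filterByExpr. Libraries r1 and r2 stem from the labels Mix and Primed, in an order that was not settled, so each name is a replicate here. Libraries of the same replicate deviated together (correlation 0.256 to 0.365 over 6 pairs) after a split of shared cultures, so replicate was a term. Libraries share a culture origin, so p-values measure the spread between these libraries. On simulated counts for 18389 genes, with 200 of them changed, the treatment fit recovered 200 with 1 false call, and on 13884 genes the fit for LINC00520-positive cells recovered 200 with 10 false calls. Alternatives were other filters, scalings, phases, depths and libraries, DESeq2 1.42.0, and clustering anew with 2000 variable genes, 30 components, 20 neighbours and resolution 0.5 (leidenalg 0.10.2). Python 3.11.15, numpy 2.4.6, pandas 2.3.3 and scipy 1.17.1 were used. Gene positions, transcription starts, exons, transcript lengths and GC content are from GENCODE, matched by symbol. Promoters are from RefSeq on GRCh38.p14. The authors' UCell scores, lineage data, EGFR_High and NGFR-High peak lists were not used here.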

Additional observations from a re-analysis of the deposited data

How the results depend on the processing

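In the untreated cells all 236 lowered genes stayed below a ratio of 1 and the 20 leading genes and 6 markers above 1 under each of the 15 alternatives, except that 235 of the 236 were below 1 in G1 cells alone. The lowered and leading genes were chosen in these same cells, the leading genes by a rise in both replicates. Other CPM filters leave each ratio as it was. Part of this outcome thus follows from the choice, and it is no test. The number of genes at least 2-fold lower lay between 171 and 308 under 12 of the alternatives and fell to 124 with ratios divided by their median and to 114 among cells with 12 to 20% mitochondrial UMIs. It was 94 without replicate 1 and 276 without replicate 2. It was 192 without well 4. Genes at least 2-fold higher, of which there were 0, numbered 3 for means over wells, 2 in S cells, 1 in G2M cells, 4 with a filter of 5 CPM, 3 in cells clustered anew, 1 after division by the median, and 0 to 2 when a replicate was left out. The log2 ratio of MITF turned to 0.027 for means over wells and to 0.027 without replicate 1 (-0.27 without replicate 2), and that of SOX10 to -0.041 in G1 cells. In G1 cells the list medians were -0.43 for melanocyte identity, -0.47 for mitosis, -0.030 for sterol synthesis, which turned, and 0.38 for the mitochondrial genome. Cluster 3 was 9.70% of all cells.

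Without the replicate block, treatment effects on the lowered genes were fewer. TGFB1 then had 16 higher, TGFBRi 0 higher and 1 lower, and PI3Ki 3 higher and 17 lower, and 39 were lower under TGFB1. Of 18389 genes these fits called 2161 higher and 1438 lower for TGFB1, 11 and 29 for TGFBRi, and 261 and 388 for PI3Ki. LINC00520-positive cells without the block had 0 lowered genes higher and 0 lower, with 6 genes called in all. Low-share cells had 106 of 117 lower, where 824 of 5501 genes were lower. Of the 6 markers, 4 were then called for TGFB1, 1 for TGFBRi and 1 for PI3Ki. Leaving out 1 library at a time gave 11 to 19 lowered genes higher and 27 to 34 lower for TGFB1, 0 to 13 higher and 1 to 21 lower for TGFBRi, and 3 to 5 higher and 16 to 22 lower for PI3Ki. The lowest TGFB1 counts came without TGFB1 r1 (11) and without Control r2 (27), and the highest TGFBRi counts without TGFBRi r1. TGFBRi had 10 lower with no filter on low counts. In drug-susceptible cells TGFB1 had 25 lower. LINC01918 changed by 0.076 under TGFB1 in drug-susceptible cells. HRK under TGFBRi turned to -0.029 and -0.042 without Control r2 and without TGFBRi r1, and was 0.12 without TGFBRi r2. LINC00520 under PI3Ki, with a change of 0.0025, turned to -0.00017 with RLE factors, -0.044 with DESeq2, -0.20 without Control r2 and -0.40 without PI3Ki r2, and was 0.27 without PI3Ki r1.

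For LINC00520-positive cells the lowered genes called higher and lower were 6 and 41 in G1 cells, 5 and 24 in Control libraries, 9 and 47 with DESeq2, 5 and 20 without replicate 2, and 13 and 79 without replicate 1. In that order all genes called were 556 and 430 of 11017, 212 and 156 of 13617, and 467 and 491 of 27279. The settings without a replicate called 244 and 174 of 12654 genes and 1123 and 1021 of 13972. SCML4 turned to 0.053 with cells not matched, 0.0097 without replicate 1 and 0.00011 without PI3Ki (-0.032 without replicate 2), C11orf96 to -0.11 without replicate 2 (0.14 without replicate 1), and HIST1H3D to 0.088 in G1 cells. In low-share cells LINC01918 turned to -0.12 and SCML4 to -0.24 without cells of cluster 11, which leaves out 3 libraries with 5 or fewer such cells, and the cause was not tested.

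For ATAC-seq the library numbers did not pair the samples (correlations -0.02, -0.03 and 0.05). Read as pairs in a replicate block, 43 of 235 lowered genes (18.3%) were higher in EGFR-NGFR-High in every pair and 8 in Mix. Of all 5632 genes 1189 (21.1%) and 288 (5.11%) were, so both shares of the lowered genes were under those of all genes. Without 1 number the counts lay between 35 and 88 (14.9% to 37.4%) and between 6 and 33 (2.55% to 14.04%). The shares of all genes then lay between 16.1% and 40.8% and between 3.82% and 18.98%. They were above those of the lowered genes in each case. Without number 1 the balance of all genes turned, with 909 higher in EGFR-NGFR-High and 1069 in Mix. A window of 5000 bp gave 7 for Mix (2.98%), against 2.56% of all genes. Libraries with few cells of cluster 3, such as wells 5 and 6, limit the values per well.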
